A study of Zea mays with 10 samples.

Results

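Among the 28580 gene IDs measured in maize endosperm, 38 were low in the third RNA library of both the opaque-2 mutant and the wild type. They were chosen by RPKM, a read number scaled to gene length and library size. The lower of WT replicates 1 and 2 had to reach 2 RPKM, WT replicate 3 had to lie under 0.25 of it, and o2 replicate 3 had to lie under 0.5 of the lower of o2 replicates 1 and 2. Of the 38, 15 matched a gene in the reference table and 6 carried a name, which was of a basal transfer layer gene or family in 5 of the 6: 2 IDs of meg2, which is also called MEG6, and the genes betl2, betl10 and bap-1a. The sixth was BURP7. A low replicate 3 is therefore how these genes were found and is not a result.

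The mutant group, o2, was a maize opaque-2 mutant in the B73 background (strain label B73o2), and the wild type, WT, was the inbred line B73. Both were grown in a greenhouse and self-pollinated, and endosperm was dissected from kernels at 15 days after pollination. Polyadenylated RNA was sequenced in 3 o2 and 3 WT libraries. The labels name no o2 allele and do not say whether replicates came from separate ears or plants, so p-values measure only the spread between these libraries, which may be technical.

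The basal transfer layer is the row of endosperm cells that faces the maternal tissue at the base of the kernel. Its cells have ingrown walls that enlarge their surface, and they take up sugars and amino acids for the whole endosperm. They are known for making small secreted proteins rich in cysteine, among them the BETL proteins, the peptides of the MEG family and the basal layer antifungal proteins. Of this layer, 6 gene IDs were kept out of the 38 and served as a reference profile: betl1 (GRMZM2G082785), betl-9 (GRMZM2G087413), MEG1 (GRMZM2G354335), the cell wall invertase gene mn1 (GRMZM2G119689), tcrr-1 (GRMZM2G016145) and GRMZM2G111306, which has no name in the table. Values of tcrr-1 were not analysed here, so the profile rests on 5 genes.

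The o2 gene (GRMZM2G015534) had 0.212, 0.173 and 0.254 RPKM in o2 replicates 1 to 3, against 112, 86.1 and 163 RPKM in WT replicates 1 to 3. The 3 o2 libraries held 42437810 to 48169603 uniquely mapped reads and the 3 WT libraries 28614800 to 37199016, with WT replicate 3 the lowest. The median over all gene IDs lay between 1.56 and 1.6 RPKM in all 6 libraries. WT replicate 3 stood apart in other measures. The RPKM of all IDs summed to 207265 to 264780 in the o2 libraries and to 696998 to 2588140 in the WT libraries, with WT replicate 3 the highest. Reads mapped to several places made up 20.8% to 21.7% in the o2 libraries, against 32.5%, 26.9% and 38.6% in WT replicates 1 to 3. With the libraries scaled to the same median, the 38 members and 1 further ID met the rule. How many reads stand behind a single RPKM value is unknown.

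Of the 10975 IDs with at least 2 RPKM in both of WT replicates 1 and 2, 61 met the WT limit (0.556%) and 173 met the o2 limit (1.58%). Both limits were met by 40, of which betl1 and mn1 are reference genes. The summed level of the 38 members was 392, 908 and 151 RPKM in o2 replicates 1 to 3, against 1361, 532 and 26.7 RPKM in WT replicates 1 to 3. Their medians were 4.03, 6.22 and 1.01 RPKM in the o2 libraries, against 11.9, 5.42 and 0.277 RPKM in the WT libraries. In o2 replicate 3, 19 of the 38 were under 1 RPKM, and in WT replicate 3, 32 were. Over members, replicate 3 stood at a median of 0.333 of the lower other library in o2 (0.00542 to 0.479) and 0.0504 of it in WT (0 to 0.247), where the IDs past the floor of 2 RPKM had medians of 1.09 in o2 and 1.06 in WT.

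**Figure D1:**
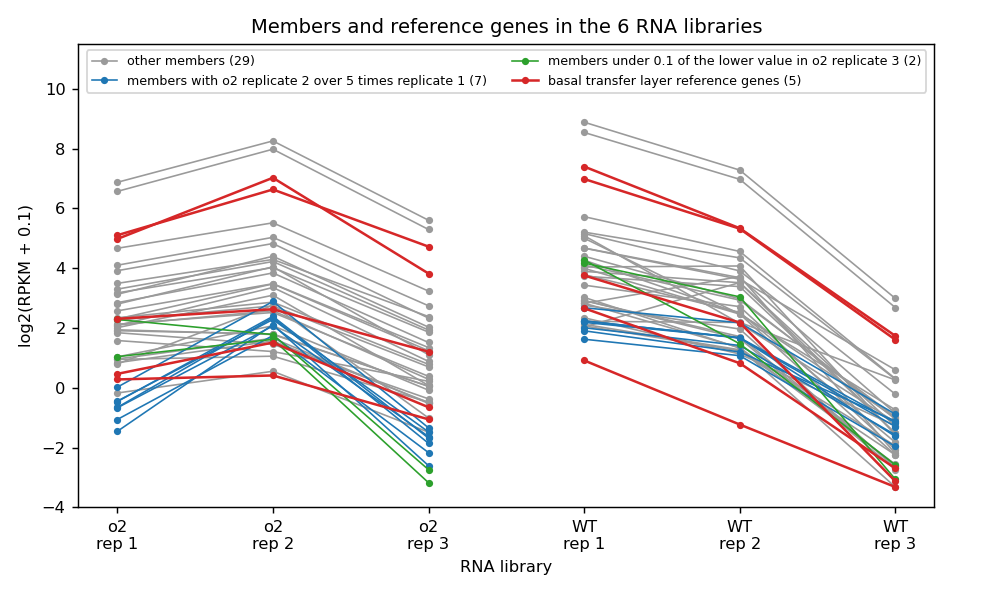
Level of each member and reference gene, as log2(RPKM + 0.1), in the 3 o2 libraries and the 3 WT libraries. Each line joins the values of 1 gene within a genotype and stands for no order of replicates. The lines of the members end low in replicate 3, which their choice fixed. The reference genes are drawn in red, with betl-9 at 26.3 RPKM in o2 replicate 3 and 34.2 RPKM in o2 replicate 1, and 2 members drawn in green lie near the bottom of the scale in replicate 3 of both genotypes.

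The most abundant member, GRMZM2G082799, has no match in the table and so no known position. It had 117, 306 and 48.5 RPKM in o2 replicates 1 to 3, against 472, 155 and 7.83 RPKM in WT replicates 1 to 3. It was highest in replicate 2 among the o2 libraries and in replicate 1 among the WT libraries, and the genotypes overlapped. The second, GRMZM2G066546, had 94.8, 252 and 39.1 RPKM in the o2 libraries, against 372, 125 and 6.32 RPKM in the WT libraries.

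These 2 IDs ran parallel over the 6 libraries, with a mean ratio of 1.24 and an SD of 0.0212 for the difference of their log2(RPKM + 0.1) values. In the reference gene order GRMZM2G066546 lies 3 genes from betl1 on chromosome 2, and GRMZM5G812796, another member, lies 2 genes from GRMZM2G066546 and 5 from betl1. The reference gene betl1 itself had 31.4, 130 and 14.0 RPKM in the o2 libraries, against 127, 39.9 and 2.94 RPKM in the WT libraries, the same order of libraries within each genotype. GRMZM5G812796 was far weaker, at 1.83, 1.98 and 0.617 RPKM in the o2 libraries, against 4.25, 2.31 and 0.160 RPKM in the WT libraries.

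GRMZM2G082821, which has no match in the table, had the widest gap between replicates 1 and 2 of WT. It had 1.63, 6.66 and 0.396 RPKM in o2 replicates 1 to 3, against 33.9, 4.34 and 0.350 RPKM in WT replicates 1 to 3. WT replicate 1 was thus 7.80 times WT replicate 2, and o2 replicate 2 was 4.08 times o2 replicate 1.

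Members around the MEG genes form the next group. The 2 IDs of meg2 match the same reference gene, so their values may not be separate measurements of 2 genes. GRMZM2G088896 had 9.73, 18.6 and 3.71 RPKM in the o2 libraries, against 25.4, 12.7 and 0.453 RPKM in the WT libraries. GRMZM2G094054 had 5.84, 11.1 and 2.44 RPKM in the o2 libraries, against 13.7, 5.64 and 0.181 RPKM in the WT libraries. In both IDs o2 replicate 2 and WT replicate 1 were the highest library of their genotype.

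GRMZM2G344323, which matches 2 reference genes, one of them a transcribed pseudogene, lies 3 and 4 genes from meg2 on chromosome 7. It had 7.09, 14.2 and 2.75 RPKM in the o2 libraries, against 17.1, 7.52 and 0.408 RPKM in the WT libraries. MEG1, a reference gene of the same stretch, had 1.28, 2.75 and 0.536 RPKM in the o2 libraries, against 6.22, 1.67 and 0.0540 RPKM in the WT libraries. It missed the rule because WT replicate 2 was under 2 RPKM.

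GRMZM2G502035 and GRMZM2G181051 have no match in the table and ran parallel to each other. GRMZM2G502035 also ran parallel to both meg2 IDs and GRMZM2G344323, and GRMZM2G181051 to GRMZM2G094054 and GRMZM2G344323. GRMZM2G502035 had 25.3, 45.7 and 9.31 RPKM in the o2 libraries, against 52.8, 23.5 and 1.13 RPKM in the WT libraries. GRMZM2G181051 had 17.0, 32.6 and 6.59 RPKM in the o2 libraries, against 35.6, 14.9 and 0.761 RPKM in the WT libraries. The SD limit for a parallel pair was 0.2 on the log2 difference over the 6 libraries, and pairs that share an ID were joined. The 38 IDs then fell into 23 groups, the largest being 6 IDs described below and these 5. Whether parallel IDs share reads was not tested, and the sources used here do not say whether counting used the strand, so the 38 IDs may stand for fewer genes.

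The antifungal protein genes and the members described with them were less uniform in the order of the WT libraries. The gene betl2 (GRMZM2G152655), also called bap2, had 4.25, 5.63 and 1.20 RPKM in o2 replicates 1 to 3, against 6.96, 13.1 and 0.118 RPKM in WT replicates 1 to 3. The related gene bap-1a (GRMZM2G008271) had 1.69, 2.86 and 0.610 RPKM in the o2 libraries, against 6.68, 3.80 and 0.0555 RPKM in the WT libraries. Both were lower in o2 than in WT in replicates 1 and 2, without overlap, as were 19.2% of tested genes. In replicate 3 both were higher in o2. The rule asks for a floor in WT alone and a deeper minimum in WT, so it bears on both orders. The 2 genes differed in WT, where betl2 was highest in replicate 2 and bap-1a in replicate 1.

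GRMZM2G121137 shared the WT order of betl2, with 4.18, 5.86 and 1.12 RPKM in the o2 libraries, against 3.995, 11.4 and 0.309 RPKM in the WT libraries. It matches a reference gene on chromosome 10, 53 genes from bap-1a. GRMZM2G179248 had 4.96, 7.17 and 1.62 RPKM in the o2 libraries, against 14.8, 11.3 and 0.248 RPKM in the WT libraries, with WT above o2 in replicates 1 and 2. GRMZM2G115340, which matches the same reference gene, had 4.69, 6.58 and 1.52 RPKM in the o2 libraries, against 13.2, 10.3 and 0.248 RPKM in the WT libraries. Both IDs ran parallel to bap-1a. The transfer layer gene betl10 (GRMZM2G091445) had 3.92, 8.44 and 0.954 RPKM in the o2 libraries, against 10.7, 6.46 and 0.138 RPKM in the WT libraries, with overlap in replicates 1 and 2.

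BURP7 (GRMZM2G032145), named for the plant-specific BURP domain, followed the reference profile most closely. It had 6.85, 16.4 and 2.05 RPKM in the o2 libraries, against 31.9, 5.42 and 0.110 RPKM in the WT libraries. Its Pearson r with the mean of the 5 centred reference profiles was 0.999 over 6 libraries. The next highest were GRMZM5G800473 (0.996), GRMZM2G082799 (0.993), GRMZM2G066546 (0.993) and GRMZM2G344323 (0.992). GRMZM5G800473 is listed at 0 in WT replicate 3, where the others range up to 7.83 RPKM.

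Over the 38 members r had a median of 0.957 and ran from 0.635 to 0.999. An r of 0.95 or more was reached by 22 of the 38 members (57.9%) and by 66 of 18687 tested genes (0.353%). The low replicate 3 that the rule asks for is part of every such r, and the points share the same 6 libraries, so these values are a description of the profile.

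The rule takes only the lower of replicates 1 and 2, so it did not set which of them was higher. It did use the level of the lower one, so the size of their gap is not free of the rule. The tested genes set beside the members were not held to its floor. WT replicate 1 was above WT replicate 2 in 35 of the 38 members, against 48.4% of all tested genes. The exceptions were betl2, GRMZM2G121137 and GRMZM2G132162. Among the o2 libraries, replicate 2 was above replicate 1 in 33 of 38, against 48.1% of all tested genes. Both orders held in 30 of 38 members, against 26.9% of all tested genes, and in all 5 reference genes. Members of 1 library vary together and are not replicates, so these counts have no p-value.

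The median log2 difference of WT replicate 1 minus replicate 2 was 1.02 in the members, 1.84 in the reference genes and -0.02 over all tested genes. For o2 replicate 2 minus replicate 1 the medians were 0.92, 1.05 and -0.01 in the same sets. The 5 members without the higher o2 replicate 2 were GRMZM6G183316, GRMZM2G040020, GRMZM2G314079, GRMZM2G101497 and GRMZM2G118191. GRMZM2G101497 also ran parallel to GRMZM2G118191 and to GRMZM2G040020. GRMZM2G101497 had 3.73, 3.34 and 0.935 RPKM in the o2 libraries, against 7.44, 3.17 and 0.0619 RPKM in the WT libraries.

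**Figure D2:**
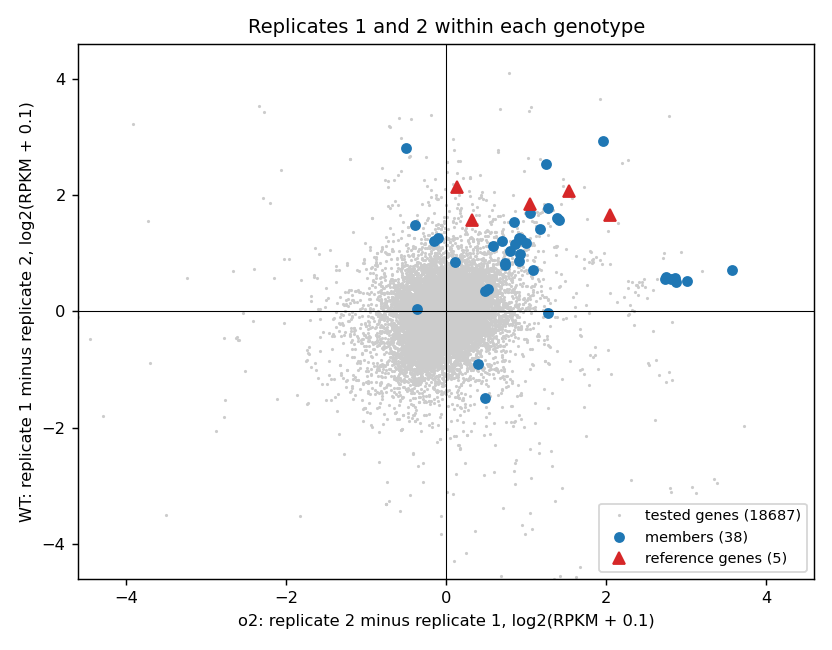
Difference between replicates 1 and 2 of log2(RPKM + 0.1) in o2 (horizontal axis, replicate 2 minus replicate 1) and in WT (vertical axis, replicate 1 minus replicate 2). Grey points are the 18687 tested genes, of which 29 lie outside the axes, blue circles the 38 members and red triangles the 5 reference genes. Of the members, 30 lie at the upper right, where both differences are above 0, and 7 form a cluster at the right.

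Those 7 IDs had a second profile, seen only after their values were drawn. In each, o2 replicate 2 was at least 7.54 times o2 replicate 1, while the other 31 members reached at most 4.08 times. They are GRMZM2G072058, GRMZM2G388825, GRMZM2G111540, GRMZM2G168492, GRMZM2G115819, GRMZM2G419655 and AC195831.3_FG004, and none has a match in the table. GRMZM2G072058 had 0.912, 7.29 and 0.295 RPKM in o2 replicates 1 to 3, against 6.29, 4.41 and 0.441 RPKM in WT replicates 1 to 3. The o2 libraries thus held 1 high value and 2 low ones, and WT held 2 high values and 1 low one.

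GRMZM2G419655 was the extreme of these, with 0.263, 4.22 and 0.0641 RPKM in the o2 libraries, against 3.64, 2.19 and 0.362 RPKM in the WT libraries. The ratio of WT replicate 1 to replicate 2 stayed within 1.43 to 1.66 in the 7, and r to the reference profile within 0.635 to 0.823. Of the 7, 6 formed the largest parallel group. Among the reference genes, betl1 had the highest ratio of o2 replicate 2 to replicate 1, at 4.14.

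Another 2 members were nearly absent from replicate 3 of both genotypes. GRMZM2G150091 had 1.95, 2.97 and 0.0106 RPKM in o2 replicates 1 to 3, against 17.9, 8.12 and 0.0199 RPKM in WT replicates 1 to 3. It lies 5 genes from MEG1 on chromosome 7. GRMZM6G183316 had 4.77, 3.33 and 0.0496 RPKM in the o2 libraries, against 19.2, 2.67 and 0.0667 RPKM in the WT libraries. In both, o2 replicate 3 was as low as WT replicate 3, at 0.00542 and 0.0149 of the lower other o2 library, whereas the 5 reference genes kept 0.342 to 0.768.

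**Figure D3:**
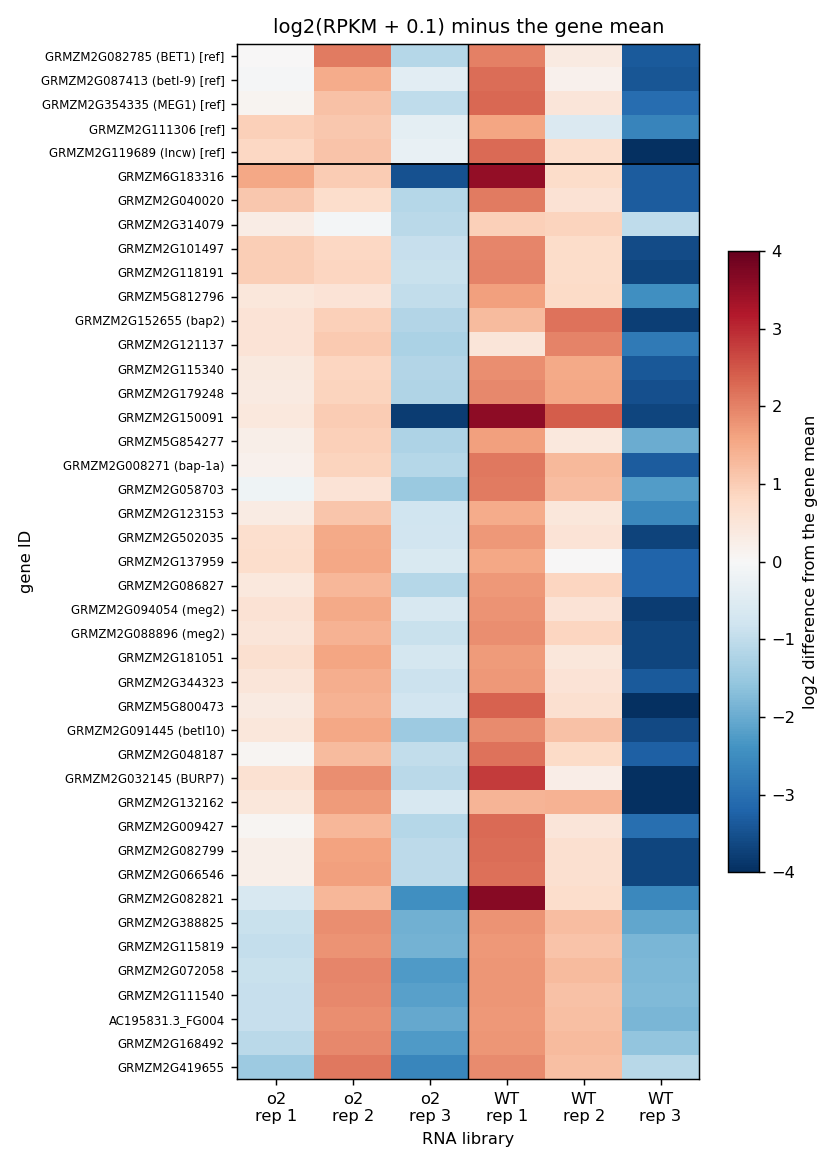
Difference of each gene from its own mean of log2(RPKM + 0.1) in the o2 libraries (left) and the WT libraries (right), with the reference genes above the line and the members below, ordered by the ratio of o2 replicate 2 to o2 replicate 1. Colours end at 4 in either direction. The 7 genes at the bottom are blue in o2 replicate 1, where most members are near or above their mean.

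Apart from GRMZM2G314079 and GRMZM2G058703, 7 members remained, with r to the reference profile between 0.95 and 0.992, and 1 of the 7 had a match in the table. GRMZM2G086827 had 15.0, 28.2 and 4.93 RPKM in the o2 libraries, against 36.8, 20.2 and 1.12 RPKM in the WT libraries. GRMZM2G123153 had 11.1, 19.5 and 5.11 RPKM in the o2 libraries, against 25.4, 12.3 and 1.41 RPKM in the WT libraries. The others are GRMZM2G132162, GRMZM2G048187, GRMZM2G009427, GRMZM2G137959 and GRMZM5G854277. The gene with a match, GRMZM2G132162, was about level in the 2 higher WT libraries, at 8.63, 20.99 and 3.97 RPKM in the o2 libraries, against 16.3, 16.7 and 0.235 RPKM in the WT libraries.

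GRMZM2G058703 had 0.785, 1.36 and 0.257 RPKM in the o2 libraries, against 4.10, 2.25 and 0.110 RPKM in the WT libraries, with every o2 value of replicates 1 and 2 below both WT values.

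GRMZM2G314079 stood nearest to both limits. It had 2.89, 2.21 and 1.06 RPKM in the o2 libraries, against 4.57, 4.44 and 1.10 RPKM in the WT libraries. Its replicate 3 was at 0.479 of the lower other library in o2 and at 0.247 in WT. The next members inside the WT limit were GRMZM2G419655 at 0.165 and GRMZM5G854277 at 0.150. Just outside it were GRMZM2G067315 at 0.253, GRMZM2G003550 at 0.257 and GRMZM2G003409 at 0.258. Inside the o2 limit came GRMZM2G048187 at 0.469 and GRMZM2G132162 at 0.460, and outside it GRMZM2G107931 at 0.508, GRMZM2G584342 at 0.521 and betl3 (GRMZM2G175976) at 0.573.

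Known transfer layer genes lay on both sides of the o2 limit. Of 61 IDs past the WT limit, 21 (34.4%) failed the o2 limit. The gene betl3, for a small protein of the transfer layer, had 3.12, 9.44 and 1.79 RPKM in the o2 libraries, against 14.2, 3.58 and 0.266 RPKM in the WT libraries. The gene betl4 (GRMZM2G073290) had 5.41, 10.9 and 3.80 RPKM in the o2 libraries, against 9.12, 8.81 and 0.350 RPKM in the WT libraries. Of the reference genes, betl-9 also failed it, with 34.2, 99.1 and 26.3 RPKM in the o2 libraries, against 169, 40.3 and 3.22 RPKM in the WT libraries. For betl3, betl4 and betl-9, o2 replicate 3 was the lowest o2 library but above 0.5 of the next.

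Of the 12 IDs of a transfer layer list, 5 are members and 4 are reference genes, and betl1 and mn1 among these also met the limits of the rule. Their low replicate 3 is therefore no separate result. Of the other 3 IDs, betl3 and betl4, described above, had their lowest value in replicate 3 of both genotypes. The 12 IDs, members included, summed to 107, 306 and 58.4 RPKM in o2 replicates 1 to 3, against 402, 141 and 8.79 RPKM in WT replicates 1 to 3. None of the 12 was listed at 0. The third, ebe1 (GRMZM2G129157), under the filter for testing, did not share this order, at 0.974, 0.899 and 0.887 RPKM in the o2 libraries, against 0.835, 0.877 and 0.990 RPKM in the WT libraries. In bulk endosperm, fewer cells of a type and less RNA per cell cannot be told apart.

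Markers of other cell types moved as well. Of 20 tested starchy endosperm IDs, 13 had their highest value in replicate 3 of both genotypes, against 16.6% of all tested genes, and 0 had their lowest there. Their sums were 10351, 12612 and 23689 RPKM in the o2 libraries, against 33714, 20577 and 60100 RPKM in the WT libraries. The gamma zein gene gz27 (GRMZM2G138727), for a storage protein, had 3351, 3884 and 6670 RPKM in the o2 libraries, against 7750, 4493 and 11066 RPKM in the WT libraries. With gz16 (GRMZM2G060429) at 11986.5 and fl2 (GRMZM2G397687) at 11377 RPKM, it made up much of the sum in WT replicate 3. Replicate 3 of gz27 stood at 1.99 of the lower other library in o2 and 2.46 in WT. The ratios were 2.29 and 2.94 for wx1 (GRMZM2G024993), but 1.28 and 1.21 for sh1 (GRMZM2G089713) and 1.26 and 1.11 for bt1 (GRMZM2G144081). The part of the starchy endosperm IDs in the low replicate 3 of the members was not tested.

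Of 4 tested IDs of the list for maternal nucellus, pedicel and pericarp, 3 had their lowest value in replicate 3 of both genotypes, where 14.5% of all tested genes did. The 6 IDs with values summed to 11.9, 11.2 and 6.98 RPKM in the o2 libraries, against 19.5, 10.7 and 5.98 RPKM in the WT libraries, with none at 0. The MADS-box gene zag2 (GRMZM2G160687), known from the carpel, had 1.47, 1.44 and 0.0627 RPKM in the o2 libraries, against 4.61, 0.996 and 0.254 RPKM in the WT libraries. Of the 4 tested IDs, zag2 had the deepest replicate 3, at 0.0435 of the lower other library in o2 and 0.255 in WT. The ratios were 0.2004 and 0.456 for see2b (GRMZM2G093032), but 0.861 and 0.558 for ccp1 (GRMZM2G098298), the most abundant ID of the list. For see2a (GRMZM2G081626) they were 0.966 and 1.14, so its replicate 3 was not the lowest in WT. The part of maternal tissue in the members was not tested.

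The embryo list split between genotypes. Its sums were 20.99, 18.4 and 5.03 RPKM in o2 replicates 1 to 3, against 33.9, 106 and 60.4 RPKM in WT replicates 1 to 3. Heat shock and stress IDs summed to 454, 412 and 225 RPKM in the o2 libraries, against 296, 182 and 971 RPKM in the WT libraries. Replicate 3 was the lowest library of both genotypes in 0 of 3 embryo, 1 of 8 heat shock, 0 of 6 aleurone, 7 of 12 hypoxia and glycolysis, 4 of 12 cell cycle, 2 of 3 invertase and sugar transporter and 2 of 6 defence IDs. These include the reference gene mn1 among the invertases and the member betl2, under its name bap2, among the defence IDs, both of which met the rule. The 2 IDs of the embryo-surrounding region summed to 1.87, 9.75 and 1.32 RPKM in the o2 libraries, against 0.677, 13.8 and 0.571 RPKM in the WT libraries, so they were low in replicates 1 and 3 alike. The list of green maternal tissue had 1 ID and none tested.

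**Figure D4:**
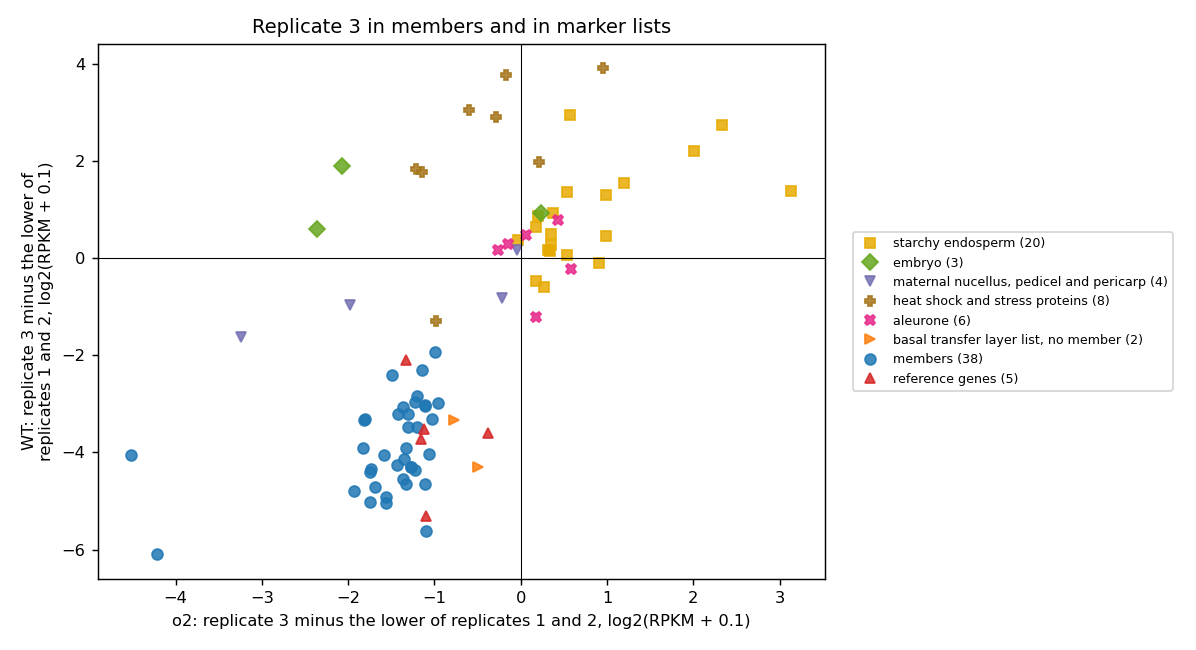
Replicate 3 minus the lower of replicates 1 and 2, as a difference of log2(RPKM + 0.1), in o2 (horizontal axis) and in WT (vertical axis). Each point is 1 gene of the members, the reference genes or a marker list. Members fill the lower left by the way they were chosen, betl3 and betl4 lie beside them, and starchy endosperm genes lie mostly at the upper right. A value above 0 shows only that replicate 3 was not the lowest library of that genotype.

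The study asked how the loss of O2 changes endosperm transcription, and for these members that comparison was dominated by the spread within genotypes. In limma on log2(RPKM + 0.1) over all 6 libraries, 0 of the 38 members were called after Benjamini-Hochberg adjustment (threshold 0.05), where 3.56% of 18687 tested genes were. None passed an unadjusted p under 0.05 either, against 19.2% of tested genes, and the lowest adjusted p among members was 0.649. All 38 passed the filter on low values. Values of o2 and WT overlapped in all 38, whereas 26.1% of tested genes did not overlap. The rule asks for a low library in each genotype and so widens both groups, which makes a call less likely, and no call does not show equal levels.

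The log2 difference of o2 minus WT had a median of 0.23 over the members (-1.56 to 1.11) and of 0.05 over all tested genes, with 24 members above 0 and 14 below. Of the 11 tested transfer layer IDs 0 were called in either direction, with a median of 0.64. Called lower in o2 were 4 of 20 starchy endosperm, 1 of 6 aleurone and 1 of 6 defence IDs, and none of the 12 lists had an ID called higher. The 4 starchy endosperm IDs were the mutated gene o2 itself, bz15, dzs18 and fl2. The aleurone ID was nkd2, close to the threshold (limma adjusted p = 0.0476). Because the rule asks for a deeper minimum in WT than in o2, it bears on the sign of the members' median. GRMZM2G082799 averaged 157 ± 133 RPKM in o2 and 212 ± 237 RPKM in WT (SD, n = 3 each), with a log2 difference of 0.53 ± 1.49 (SE, limma adjusted p = 0.893). Among named genes, meg2 (GRMZM2G088896) had 0.65 ± 1.41, betl10 (GRMZM2G091445) 0.37 ± 1.5, betl2 (GRMZM2G152655) 0.23 ± 1.51 and bap-1a (GRMZM2G008271) -0.04 ± 1.39 (log2 difference ± SE, limma adjusted p from 0.855 to 0.992).

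Without replicate 3 of both genotypes, 36 of 38 members were lower in o2 than in WT, with a median log2 difference of -0.64 (-2.28 to 0.37). The median of all tested genes was then 0.03, and 45.8% of them were lower in o2. Again 0 members were called in limma, against 1.6% of tested genes, while 7 were lower at an unadjusted p under 0.05, against 6.59% of tested genes. The floor of 2 RPKM is asked of WT alone and so bears on this direction and on the count of 7. The tested genes were not held to it, and the 36 members share the same 4 libraries.

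GRMZM2G150091 had the largest difference without replicate 3, at -2.28 ± 0.42 (log2 ± SE, limma adjusted p = 0.0765). With all 6 libraries it averaged 1.64 ± 1.5 RPKM in o2 and 8.69 ± 8.96 RPKM in WT (SD, n = 3 each; log2 difference -1.56 ± 2.09, SE, limma adjusted p = 0.750). That difference was -3.78 without WT replicate 3 and -0.06 without o2 replicate 3. The other 6 were GRMZM2G058703, bap-1a, GRMZM2G179248, GRMZM2G115340, betl2 and GRMZM2G314079, with differences of -1.46, -1.16, -1.10, -1.06, -0.95 and -0.81 (log2 without replicate 3, limma adjusted p from 0.155 to 0.308). In 8 of the 38 members both o2 values lay below both WT values in replicates 1 and 2, a share near the 19.2% of tested genes. These were the 7 just named and GRMZM5G812796. Of the 7, GRMZM2G179248 and GRMZM2G115340 match the same reference gene and ran parallel to bap-1a, so the 7 may stand for fewer genes. Both o2 values lay above both WT values in 0 members, against 25.2% of tested genes. The floor of 2 RPKM asked of WT alone bears on this too.

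**Figure D5:**
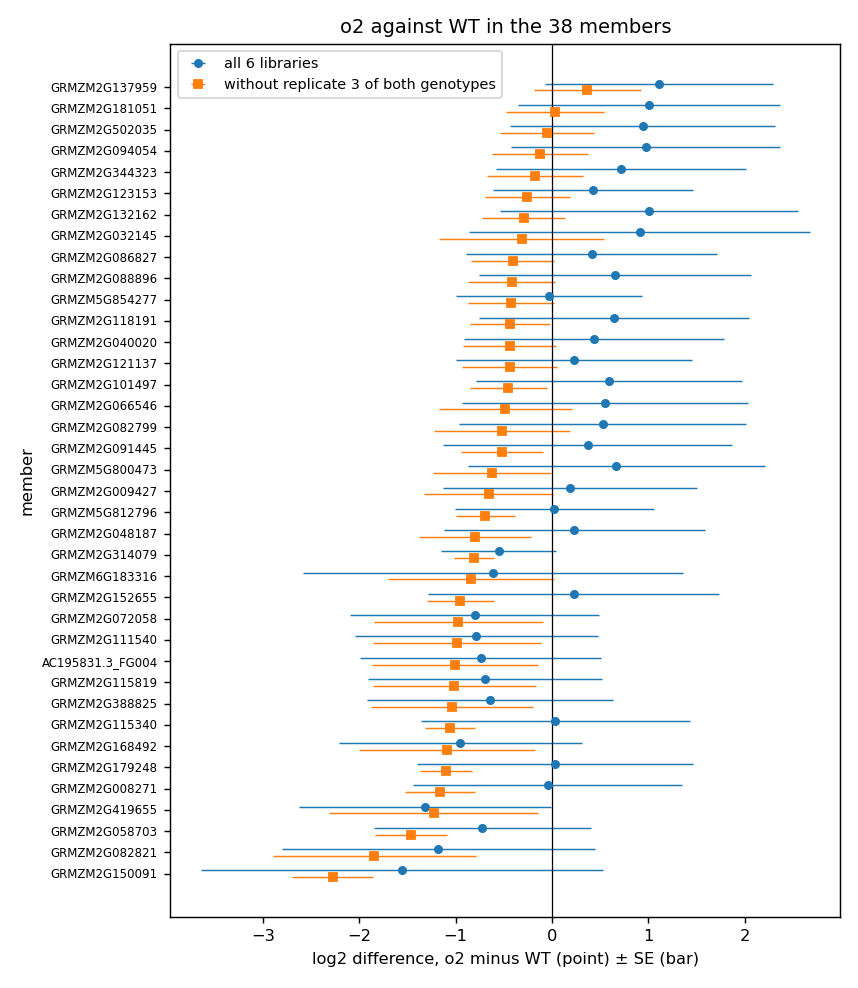
Log2 difference of o2 minus WT for each of the 38 members, with bars for the SE, in the limma fit on all 6 libraries (circles) and in the fit without replicate 3 of both genotypes (squares). Circles lie on both sides of 0 with wide bars, and 36 of 38 squares lie below 0.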

How the data were processed

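The authors deposited gene expression as RPKM, per the file headers, with 1 column per RNA library, and mapped reads as counts per library and mapping class. B73 RefGen_v3 is the build in the submitters' processing notes. These also list TopHat2 2.0.9 and Bowtie2 2.1.0, edgeR 3.2.4, and without a version Trimmomatic; bedtools 2.17.0 and MACS2 2.1.0.20140616 are listed there as well. No role is stated for any of them. Which reads set the RPKM scale, and whether strand was used, is not known from those sources. The deposited O2 peak list was not used here.

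Genes with at least 1 RPKM in at least 3 of 6 libraries (18687) were tested on log2(RPKM + 0.1), which understates changes of low genes. The fit used limma 3.58.1 (lmFit, eBayes with trend) under R 4.3.3. Genotype was its single term, and Benjamini-Hochberg adjustment ran over all tested genes. On simulated data with the spread of each gene, the fit recovered 32% of changes of log2 1 and 82% of log2 2. Of the calls there, 3.21% were false. The simulated noise was independent between genes, whereas genes of 1 library can vary together, so these shares may not hold for the data. The changed genes were drawn from all tested genes, so recovery among the members is not known. RPKM does not allow a count test, and the remaining comparisons are descriptions.

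Names and gene order came from a reference table (Zm-B73-REFERENCE-NAM-5.0) that matched 12658 of the 28580 IDs. Neighbours lie at most 5 places apart in that order unless a number is given. In the 12 marker lists, symbols whose aliases show another gene were removed. The members and lists were chosen with earlier results of these data known. The rule for named genes took the reference genes, the 12 most abundant members, members with a name or a neighbour, the 5 most like the reference profile, the 3 genes on each side of the WT limit, and the 2 most abundant tested genes per list, named where a result turns on them. All other genes, those near the o2 limit included, were named after their values were seen. Protein and promoter features were planned and not computed here.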

Additional observations from a re-analysis of the deposited data

How the results depend on the processing

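The number of members was 39 with libraries scaled to the same median and with quantile normalization, in each case the 38 and 1 more ID. It was 22 with a floor of 4 RPKM and 5 with a limit of 0.25 in both genotypes, so most members met the o2 limit only at 0.5. With 1 ID per group of parallel IDs, 20 of 23 were higher in WT replicate 1 and 20 of 23 in o2 replicate 2. This alternative was chosen after seeing the data. The 14 alternatives of the genotype fit called 0 members (lowest adjusted p 0.0765 to 0.659). Over all tested genes 666 were called, against 1051 without a filter on low values, 98 to 777 with 1 library left out and 299 without replicate 3 of both genotypes. The median log2 difference of the members ran from -1.19 without WT replicate 3 to 1.14 without WT replicate 1 and was -0.08 with a pseudocount of 1. Its sign thus changed both with single libraries left out and with the pseudocount.

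Of 6 members followed singly, 5 changed direction under at least 1 alternative. GRMZM2G150091 was lower in o2 under all 14, from -3.78 without WT replicate 3 to -0.06 without o2 replicate 3. Leaving out 1 library gave log2 differences from -1.17 to 1.78 for GRMZM2G082799, -1.03 to 1.74 for meg2 (GRMZM2G088896), -1.60 to 1.36 for betl2 (GRMZM2G152655), -1.35 to 1.41 for betl10 (GRMZM2G091445) and -1.73 to 0.996 for bap-1a (GRMZM2G008271). Without replicate 3 of both genotypes GRMZM2G082799, meg2, betl2 and betl10 were at -0.52, -0.42, -0.95 and -0.52. With a pseudocount of 1 betl2 was at -0.24 and betl10 at -0.042, and with 0.01 bap-1a was at 0.28. The cause was not tested.

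For replicates 1 and 2, the same-numbered libraries of the genotypes were not the most alike. Deviations of same-numbered libraries from their group means correlated at -0.02, 0.06 and 0.32 for replicates 1 to 3 over 18687 genes. WT replicates 1 and 2 correlated best with o2 replicates 2 and 1 (0.17 and 0.23), but WT replicate 3 correlated best with o2 replicate 3. Deviations from a group mean depend on each other, so these correlations do not settle whether replicates were paired. The fit with the replicate block called 340 genes (1.82%) and 0 members in limma, where 2 of the 38 members had an unadjusted p under 0.05, against 17.6% of tested genes. The reads behind single values are unknown, so no limit from depth is given.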
